A study of Mus musculus with 16 samples.

Results

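Replication-dependent histone genes encode the H1 linker histones and the H2A, H2B, H3 and H4 core histones that package newly made DNA. They are transcribed mainly in S phase from clusters of short genes, and their mRNAs are not polyadenylated. The mRNA instead ends in a conserved stem-loop that is bound by the stem-loop binding protein Slbp and cut by a processing complex that contains the U7 small nuclear RNA, and the mRNA is degraded when DNA synthesis stops. In the newborn mouse heart these transcripts accompany the last rounds of DNA synthesis in cardiomyocytes and the division of the other cells of the ventricle.

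The genes were chosen by symbol (H1f, H2ac, H2bc, H3c or H4c) among the protein-coding genes of the mouse annotation. This gave 73 genes, of which 71 were in the deposited table and 65 had a summed count of at least 10 over the 16 libraries, out of 51912 genes in the table. The 65 comprised 9 H1, 15 H2A, 16 H2B, 12 H3 and 13 H4 genes. *H1f7*, *H2ac1*, *H2ac19* and *H2ac23* were listed at 0, and *H1f8* (7 counts) and *H2bc1* (5 counts) fell under the limit, whereas the identifiers of *H2bc9* and *H2bc14* were not matched. *H2bc26*, with 39 counts, was kept but had too few counts in the groups to be tested, so 64 genes were tested. The symbols also take in 3 linker histones that are not replication-dependent, *H1f0* and *H1f10*, which are made throughout the cell cycle, and *H1f9*, which is known from the testis.

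The data are total RNA sequencing of whole ventricles from above and below the ligation, collected 7 days after surgery. WT SH and WT MI hearts came from C57BL/6J mice, and KO SH and KO MI hearts from whole-body Lrrc10-/- mice generated in a C57BL/6 background, in which every cell type carries the deletion although LRRC10 is a cardiomyocyte protein. Surgery on the day after birth was either a sham operation (SH), in which the heart was not exposed, or myocardial infarction (MI) by ligation of the left anterior descending artery. Each of the 4 groups had 4 libraries, numbered 1 to 4 except for KO MI, numbered 1, 2, 3 and 7. The labels do not say whether the libraries of a group came from separate litters, so p-values measure the spread between these libraries. The libraries held between 33783874 and 57470159 counts (median 45092798), and the histone genes took from 0.0395% of a library (KO SH 4) to 0.0812% (WT MI 2). The libraries were depleted of rRNA and were not selected for poly(A) tails, so stem-loop mRNAs could be captured.

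*Lrrc10*, the deleted gene, had between 1075 and 1850 counts in WT SH and between 1247 and 1355 in WT MI libraries, and 0 counts in all 8 KO libraries. Cardiomyocyte markers were abundant in every library, with *Myh6*, the main myosin heavy chain of the mouse ventricle, at a CPM of 11960 or more, where CPM is the count scaled to a common library size by the TMM method. The paper describes equal shares of males and females for the sequencing. *Xist*, which is transcribed from the inactive X chromosome, was however at 9.76 CPM or less in all 4 WT SH libraries. There 4 Y-linked genes summed to at least 159.7 CPM. In each of the other groups 2 libraries had *Xist* above 100 CPM (KO SH 1 and 2, WT MI 2 and 4, KO MI 1 and 2). Counts of changed genes are therefore also given for the libraries with *Xist* below 100 CPM. Markers of skeletal muscle stood apart in 2 libraries of 1 group, with a summed level of 69.4 CPM in KO MI 2 and 114 CPM in KO MI 7, against 12.7 CPM or less in the other 14 libraries.

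The stem-loop at the 3′ end of the mRNA is shown because it sets these genes apart from other protein-coding genes and because members that are not replication-dependent lack it. A search of the 200 bases after the stop codon (GRCm39, strand of the gene) for this stem-loop, 6 paired bases that open with GG around a loop of 4 bases, found it in 60 of the 65 genes. The 4 loop bases are in capitals, flanked by the stem:
37 genes of H1, H2A, H2B and H3: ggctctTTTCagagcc
8 genes of H1, H2A, H2B and H3: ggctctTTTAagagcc
8 H4 genes: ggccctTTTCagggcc
2 H4 genes (H4c9, H4c14): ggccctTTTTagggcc
2 H4 genes (H4c2, H4c11): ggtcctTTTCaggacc
H4c1: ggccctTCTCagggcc
H2ac20: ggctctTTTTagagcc
H3c8: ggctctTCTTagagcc
The stems differed by family. All 13 H4 genes had a stem that was not found in the other families, and no gene outside H4 had an H4 stem. The 5 genes without a match were *H1f0*, *H1f9*, *H1f10*, *H2ac22* and *H2bc21*.

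The genes lie in clusters. The largest held 49 of the 65 genes on chromosome 13 (GRCm39 chr13:21899933-23948389), 9 were on chromosome 3 (chr3:96127181-96177448), 4 on chromosome 11, 2 on chromosome 6 (*H1f10* and *H4c16*) and 1 on chromosome 15 (*H1f0*). In 10 cases an H2A and an H2B gene pointed away from each other with 176 to 302 bases between their annotated starts, such as *H2ac11* and *H2bc11*. The bases just upstream of the annotated start are given for a linker histone, the most abundant H2A gene, 2 H2B genes and an H4 gene, 120 bases each on the strand of the gene, with motif matches in capitals:
H1f4 (chr13:23806542-23806661, minus strand): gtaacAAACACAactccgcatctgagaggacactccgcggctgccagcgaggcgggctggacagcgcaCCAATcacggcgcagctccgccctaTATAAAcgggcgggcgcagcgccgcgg
H2ac18 (chr3:96152693-96152812, plus strand): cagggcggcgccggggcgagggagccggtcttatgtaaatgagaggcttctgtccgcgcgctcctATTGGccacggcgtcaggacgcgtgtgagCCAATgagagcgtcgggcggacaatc
H2bc11 (chr13:22227264-22227383, plus strand): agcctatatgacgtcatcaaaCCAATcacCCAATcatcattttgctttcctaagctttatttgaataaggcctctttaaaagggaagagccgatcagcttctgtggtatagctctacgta
H2bc12 (chr13:22219920-22220039, plus strand): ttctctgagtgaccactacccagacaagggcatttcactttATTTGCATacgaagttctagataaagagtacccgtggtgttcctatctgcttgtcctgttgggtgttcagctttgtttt
H4c4 (chr13:23765461-23765580, plus strand): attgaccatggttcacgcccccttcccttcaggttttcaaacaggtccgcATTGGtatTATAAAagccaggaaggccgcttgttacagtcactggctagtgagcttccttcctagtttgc
The capitals mark the H1 AC box (AAACACA), the CCAAT box (CCAAT, or ATTGG on the other strand), the TATA box (TATAAA) and the octamer (ATTTGCAT). From 250 bases before to 50 bases after the start, on both strands, the octamer was found in 11 of the 65 genes (6 H2A and 5 H2B genes) and in 1.70% of the promoters of 21426 protein-coding genes. CCAAT was found in 49 of the 65 genes, among them all 15 H2A, 14 of 16 H2B and 11 of 12 H3 but 3 of 13 H4 genes, and in 39.9% of all promoters. TATAAA occurred in 31 genes and in 13.7% of all promoters, and AAACACA in 7 genes, of which 5 were H1 genes, and in 7.28% of all promoters. TTTNGCGC, a core of the E2F site, occurred in 12 genes, 6 H2A and 6 H2B, and in 1.57% of all promoters. Paired H2A and H2B genes share part of these windows, and matches are descriptions of the letters only.

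Many of the genes are near-identical copies, which limits what the counts of a single gene can say. Of the 65 genes, 16 shared no stretch of 150 bases with another gene of the annotation, 24 shared less than 10% of such stretches, and 20 shared more than 50%. RSEM divides the reads that fit several genes in proportion. Values below are therefore given for single genes, and sums over families are plotted for all groups and written out for the sham comparison.

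Per kilobase of exon, *H2ac18* was the most abundant gene, with a mean level of 234 CPM per kb over the 16 libraries. *H2ac20* (87.5 CPM per kb) followed, then *H2bc18* (55.1) and *H2ac10* (54.3), whose order differed between groups, and *H1f2* (34.2). *H3c13* (21.3) led the H3 genes and *H4c8* (16.9) was the highest of the 3 most counted H4 genes. *H2ac18* alone held between 26.0% and 37.2% of all histone counts in the 8 WT libraries and between 10.7% and 14.3% in the 8 KO libraries, so sums that include it carry its genotype difference.

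Summed levels are given without *H2ac18* and without the 3 replication-independent linker histones. The sum over the other 61 genes was 378, 334, 353 and 361 CPM in WT SH and 313, 296, 308 and 284 CPM in KO SH. It was 413, 487, 465 and 409 CPM in WT MI and 410, 563, 472 and 436 CPM in KO MI. KO SH libraries were the lowest and did not overlap WT SH, both MI groups were above their sham group without overlap, and the MI groups overlapped each other. On the log2 scale the mean of KO SH stood at −0.25 relative to WT SH. The ratio of the means was 0.31 for MI over SH in WT hearts, 0.65 for MI over SH in KO hearts and 0.08 between the MI groups. In whole ventricle, fewer dividing cells and less histone mRNA per dividing cell cannot be told apart.

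**Figure D1:**
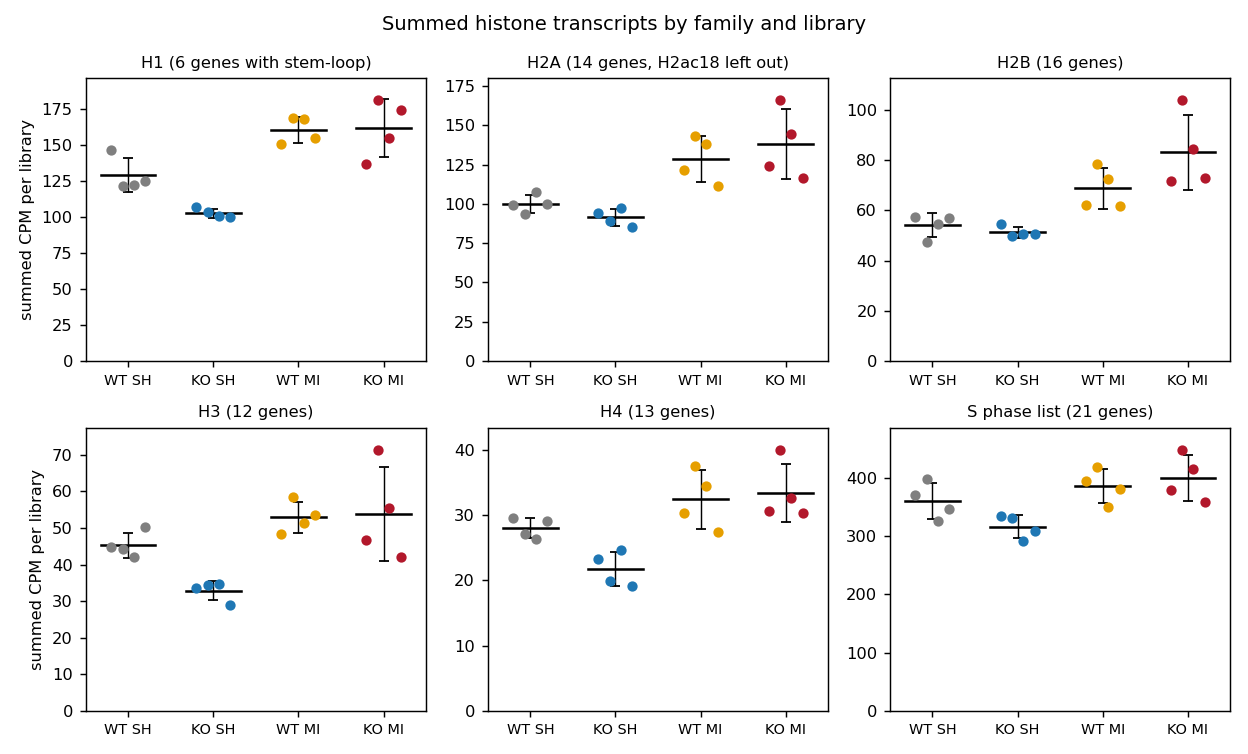
Summed CPM per library (vertical axis, linear from 0) for 5 histone families (H1 as the 6 genes with a stem-loop, H2A without *H2ac18*) and 21 S phase genes; each point is 1 library, the horizontal line is the mean of 4 libraries and the bar is ± 1 SD. KO SH has the lowest mean in each panel, and KO MI 2 is the highest of the 4 KO MI points in each.

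Of the comparisons made, the most histone genes were called for the injury response of knockout hearts. Between KO MI and KO SH, 33 of the 64 tested genes rose and none fell (edgeR quasi-likelihood test with p adjusted by Benjamini-Hochberg below 0.1, and a change of 0.5 or more on the log2 scale). The same rule called 7.41% of all 20159 tested genes, and 5.31% as higher. The median log2 fold change of the histone genes was 0.71, against −0.01 over all tested genes, and 62 of 64 values were above 0 where 48.0% of all genes were. In 34 of the 64 genes all KO MI libraries were above all KO SH libraries, which held for 7.67% of all genes. Restricted to libraries with *Xist* below 100 CPM, 14 genes passed the test, where 3.08% of all genes did. Without KO MI 2 and KO MI 7, the libraries with raised skeletal muscle markers, 26 genes rose and none fell, where the rule called 6.59% of all genes.

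Linker histones bind the DNA between nucleosomes and compact chromatin. *H1f3* (chr13:23737436-23744860) was at 22.9, 23.0, 20.9 and 20.2 CPM in KO SH and at 32.3, 46.0, 38.3 and 34.9 CPM in KO MI. The groups did not overlap, and the increase was 1.74-fold (log2 fold change 0.80, SE 0.09, edgeR adjusted p = 0.00027). *H1f1* rose 1.73-fold (log2 0.79, SE 0.12) and *H1f5* 1.67-fold (log2 0.74, SE 0.12). The 2 most abundant linker histones with a stem-loop rose less, *H1f2* by 1.49-fold from 43.3 ± 0.79 to 64.7 ± 9.50 CPM (SD, n = 4) and *H1f4* by 1.51-fold. Both estimates fell to 0.49 on the log2 scale, just under the minimum fold change, without KO MI 7. The replication-independent *H1f0*, at 58.9 ± 1.49 and 66.4 ± 6.27 CPM (SD, n = 4), did not pass the test (log2 0.17, SE 0.08), nor did *H1f10* (log2 0.25, SE 0.13) or *H1f9* (log2 −0.56, SE 0.23). *H1f6*, a testis linker histone, had at most 11 counts in a library and did not pass.

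H2A and H2B form the dimers at the edge of the nucleosome. Of the H2A genes 5 of 15 rose, and *H2ac20* (chr3:96127677-96128196), which shares no stretch with another gene, was the most abundant of them. It was at 37.9, 32.6, 40.0 and 34.7 CPM in KO SH and at 51.0, 70.5, 58.4 and 49.8 CPM in KO MI, an increase of 1.58-fold (log2 0.66, SE 0.14, edgeR adjusted p = 0.0067). All KO MI libraries were above all KO SH libraries. Of the H2B genes 7 of 15 rose. *H2bc3* was at 2.997, 2.81, 2.98 and 2.73 CPM in KO SH and at 4.04, 6.79, 5.95 and 4.98 CPM in KO MI, a 1.89-fold increase (log2 0.92, SE 0.15). The groups did not overlap, and 6.9% of the stretches of this gene occur elsewhere. *H2bc15* had the largest estimate of the called H2B genes (log2 1.29, SE 0.36), with values of 2.30 to 4.82 CPM in KO SH and 5.78 to 9.98 CPM in KO MI, and shares 34.9% of its stretches with other H2B genes.

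H3 and H4 form the tetramer at the core of the nucleosome. Of the H3 genes 9 of 12 rose, the largest share of the 5 families. *H3c2* (chr13:23936250-23936869), the most counted of them, was at 8.74, 8.53, 7.93 and 7.53 CPM in KO SH and at 11.1, 19.03, 15.8 and 10.4 CPM in KO MI. All KO MI libraries were higher, and KO MI 2 and 3 stood above KO MI 1 and 7 (log2 0.79, SE 0.14, edgeR adjusted p = 0.0026). Of the H4 genes 7 of 13 rose. *H4c4* (chr13:23765581-23766718), which shares no stretch, was at 3.09, 2.43, 3.55 and 3.02 CPM in KO SH and at 5.06, 5.92, 4.68 and 4.41 CPM in KO MI (log2 0.73, SE 0.13, edgeR adjusted p = 0.0023). The KO MI libraries were all above the KO SH libraries. *H4c14*, from the chromosome 3 cluster, rose 1.88-fold (log2 0.91, SE 0.17).

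The rise took in all families, and genes with and without shared sequence. Median log2 fold changes were 0.58 for H1, 0.66 for H2A, 0.77 for H2B, 0.72 for H3 and 0.73 for H4. Among the 23 tested genes that shared less than 10% of their stretches 9 rose, with a median of 0.58, and among the other 41 genes 24 rose, with a median of 0.74. Of the 59 tested genes with a stem-loop 32 rose (median 0.72), and of the 5 without it 1 rose (*H2ac22*; median 0.17). The difference between these subsets was not tested.

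**Figure D2:**
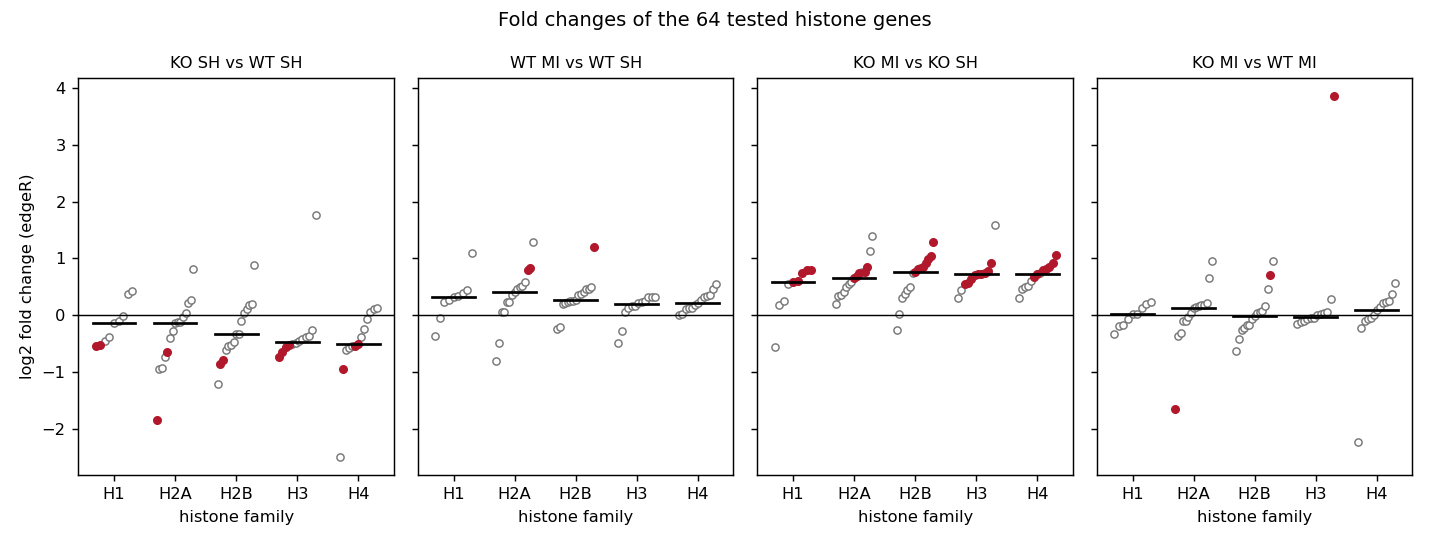
Log2 fold change (vertical axis, edgeR) of each of the 64 tested histone genes by family in 4 comparisons. Filled red points passed the test, open points did not, and the short line is the family median. In KO MI against KO SH 33 points are filled above 0, and in KO SH against WT SH 13 are filled below 0.

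The highest and lowest library of each group was counted over the 64 genes. These counts were not compared with those over all genes, and many of the 64 genes share sequence. KO MI 2 was the highest of the 4 KO MI libraries in 42 of the 64 genes and KO MI 7 the lowest in 31. Among WT MI libraries, WT MI 2 was the highest in 32 genes, and among WT SH libraries WT SH 4 was the highest in 35. No KO SH library stood out as the highest, with 17, 20, 18 and 9 genes for KO SH 1, 2, 3 and 4, but KO SH 4 was the lowest in 30 genes. KO MI 2 was also the highest library of its group for the S phase list (448 CPM) and the G2/M list (1057 CPM).

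In hearts that were not infarcted, KO SH against WT SH, 13 of 64 genes fell and none rose, and the same rule called 5.01% of all tested genes, 2.53% as lower. The median log2 fold change was −0.39, against 0.01 over all genes, and 49 of 64 values were below 0 where 49.0% of all genes were. In 19 genes all KO SH libraries were below all WT SH libraries, which held for 10.2% of all genes. The count was 6 with the libraries below 100 CPM of *Xist*, where the rule called 2.3% of all genes, and it was between 6 and 11 when single libraries were left out (6 without WT SH 1 and 6 without KO SH 4, 8 without KO SH 2). Without WT SH 4, 8 genes fell and 3 rose. In these fits the rule called between 3.35% and 6.15% of all genes.

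The genes that fell came from all families. *H1f1* was at 7.50, 8.15, 8.12 and 9.11 CPM in WT SH and at 5.21, 5.59, 6.32 and 5.79 CPM in KO SH. The groups did not overlap (log2 −0.52, SE 0.12, edgeR adjusted p = 0.014). *H1f4* fell from 36.4 ± 7.44 to 25.0 ± 1.68 CPM (SD, n = 4; log2 −0.54, SE 0.13). *H1f3* (log2 −0.39, SE 0.09) and *H1f5* (log2 −0.45, SE 0.12) had edgeR adjusted p values of 0.014 and 0.026 but did not reach the minimum fold change. Without WT SH 4 or KO SH 1 *H1f1* stood at −0.46 and −0.48, and without WT SH 1 *H1f4* stood at −0.39, all under the minimum fold change. *H1f10* differed in direction, at 4.85 ± 0.90 CPM in WT SH and 6.54 ± 0.54 CPM in KO SH (SD, n = 4; log2 0.43, SE 0.13, edgeR adjusted p = 0.053), also short of the minimum fold change.

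*H3c2* was at 12.4, 11.3, 11.5 and 11.7 CPM in WT SH and, as above, at most 8.74 CPM in KO SH. The groups did not overlap (log2 −0.52, SE 0.14, edgeR adjusted p = 0.034). *H3c1*, *H3c4* and *H3c15* also fell, by 0.65, 0.56 and 0.74 on the log2 scale. Of the H4 genes *H4c1*, *H4c4* and *H4c14* fell, and the WT SH values of *H4c4* were 4.46, 4.22, 3.92 and 4.55 CPM, all above the highest KO SH value of 3.55 CPM (log2 −0.50, SE 0.13). Of the H2B genes *H2bc11* and *H2bc13* fell, each with groups that overlapped. *H2ac24* fell by 0.64 on the log2 scale (SE 0.22), with 91.0% of its stretches shared, and *H2ac18* is described below. When single libraries were left out in turn, *H2ac18* and *H3c15* kept their call in all 8 cases. *H3c2* was at −0.49 without WT SH 1 and −0.48 without KO SH 4, *H3c4* at −0.46 without WT SH 2, and *H4c4* between −0.48 and −0.42 without WT SH 1, WT SH 4 or KO SH 2, values under the minimum fold change. The other 6 genes named here lost the call in 4 of 8 cases or more, up to 7 for *H2ac24*, with the same direction in each case.

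Sums by family are given for the sham comparison without *H2ac18*. The H3 sum was at 44.7, 44.3, 42.1 and 50.2 CPM in WT SH and at 33.6, 34.4, 34.6 and 28.9 CPM in KO SH, without overlap. The H4 sum was 28.0 ± 1.54 and 21.8 ± 2.66 CPM (SD, n = 4) and the sum of the 6 linker histones with a stem-loop 129 ± 11.8 and 103 ± 3.04 CPM (SD, n = 4), both without overlap. The H2B sum, 54.1 ± 4.64 and 51.3 ± 2.14 CPM (SD, n = 4), and the H2A sum without *H2ac18*, at 93.5 to 107 CPM in WT SH and 85.2 to 97.6 CPM in KO SH, overlapped.

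In WT hearts fewer histone genes were called after injury. Between WT MI and WT SH, 3 of 64 genes rose and none fell, where the rule called 2.77% of all genes and 2.13% as higher, so the share called was close to the background. The median log2 fold change was 0.26, against 0.00 over all genes, and 56 of 64 values were above 0 where 49.1% of all genes were. The groups did not overlap in 12 genes, all higher in WT MI, against 6.16% of all genes. The 3 called genes were *H2ac8*, *H2ac22* and *H2bc23*, each with means under 2 CPM. *H2ac8* was at 0.90, 0.61, 1.03 and 1.16 CPM in WT SH and at 1.47, 1.79, 1.73 and 1.43 CPM in WT MI (log2 0.79, SE 0.22, edgeR adjusted p = 0.059). All WT MI libraries were above all WT SH libraries. *H2ac8* and *H2ac22* each lost the call in 4 of 8 cases when single libraries were left out, and *H2bc23* in none. *H2bc23* shares 93.2% of its stretches, nearly all of them with *H2bc24*, which was at 0.458 CPM in WT SH and 0.383 CPM in WT MI. The sum of both was between 0.715 and 0.989 CPM in WT SH and between 0.988 and 1.87 CPM in WT MI, and these groups overlapped.

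Some more abundant genes had an adjusted p below 0.1 with a change under the minimum. *H1f3* was at 27.9, 27.4, 27.5 and 30.9 CPM in WT SH and at 34.8, 37.3, 37.3 and 39.2 CPM in WT MI, without overlap (log2 0.38, SE 0.09, edgeR adjusted p = 0.023). *H2ac10*, which had 58.4% of its stretches in common with other H2A genes, was at 18.02 ± 2.76 and 24.03 ± 0.996 CPM (SD, n = 4; log2 0.42, SE 0.08), and *H2bc4* at 10.5 ± 0.57 and 14.5 ± 1.08 CPM (SD, n = 4; log2 0.46, SE 0.10). Without a minimum fold change 10 genes passed, all higher in WT MI, as did 5.3% of all genes. With the libraries below 100 CPM of *Xist* no gene passed (edgeR; 15 of the 58 genes tested there had an unadjusted p under 0.05, and 1.09% of all genes passed), and leaving out single libraries gave between 1 and 5 genes (1 without WT SH 2 and 1 without WT MI 2, 5 without WT SH 4), where the rule called between 1.42% and 3.19% of all genes.

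Whether the injury response differed between genotypes was tested by the interaction of genotype and surgery. No histone gene passed (edgeR; 0.0248% of all genes did), and 15 of 64 had an unadjusted p under 0.05, against 13.6% of all genes. With DESeq2 3 genes passed, as did 1.43% of all genes. The median interaction was 0.39 on the log2 scale, against 0.00 over all genes, with 53 of 64 values above 0 where 50.3% of all genes were. The smallest p was that of *H1f3* (log2 0.42, SE 0.12, edgeR adjusted p = 0.19), and *H4c14* (log2 0.80, SE 0.24), *H2bc3* (log2 0.64, SE 0.21) and *H2bc18* (log2 0.52, SE 0.17) followed. Without KO MI 7, 9 genes passed the test, but so did 4.2% of all genes, against 0.0248% with all libraries. With the libraries below 100 CPM of *Xist* none passed (edgeR; 10 of 58 genes had an unadjusted p under 0.05).

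At 7 days post-MI, few histone genes were called between the genotypes. In KO MI against WT MI, 2 of 64 genes were higher and 1 was lower, where the rule called 1.73% of all genes, 0.57% as higher and 1.16% as lower. The median log2 fold change was 0.02, with 34 values above 0 where 52.1% of all genes were. Without KO MI 2 and KO MI 7 again 2 genes were higher and 1 was lower, and with the libraries below 100 CPM of *Xist* 1 was higher and 1 was lower, where the rule called 1.5% and 0.744% of all genes. All 3 called genes, *H2ac18*, *H2bc18* and *H3c14*, lie in the cluster on chromosome 3, whereas *Lrrc10* is on chromosome 10. *H2ac6*, an H2A gene of the chromosome 13 cluster, had all KO MI libraries above all WT MI libraries, 2.13 ± 0.64 against 1.10 ± 0.11 CPM (SD, n = 4; log2 0.95, SE 0.31), but did not pass (edgeR adjusted p = 0.16), and it overlaps *H2bc4* on the opposite strand.

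*H2ac18* (ENSMUSG00000064220, chr3:96152813-96153398, plus strand) encodes a canonical H2A. It was at 161, 191, 171 and 253 CPM in WT SH and at 55.0, 60.4, 51.4 and 50.5 CPM in KO SH. It was at 212, 229, 231 and 241 CPM in WT MI and at 66.3, 80.7, 80.7 and 62.5 CPM in KO MI. The 8 KO libraries were all below the 8 WT libraries. The level was 3.56-fold lower in KO SH (log2 −1.83, SE 0.12, edgeR adjusted p = 7.8e-08) and 3.14-fold lower in KO MI (log2 −1.65, SE 0.12, edgeR adjusted p = 5.6e-07), and the exact permutation test (two-sided, n = 4) gave p = 0.0286 for each, the smallest it can give. Leaving out single libraries gave log2 values from −1.91 to −1.68 and from −1.71 to −1.59. No other H2A gene was called lower in both comparisons.

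Of the stretches of *H2ac18*, 87.0% also occur in *H2ac19*, listed at 0, and in the overlapping long non-coding RNA *Gm20634*. Summed with these and with *H3c13*, *H3c14* and *H3c15*, which share sequence with *Gm20634*, the level was 175, 204, 183 and 269 CPM in WT SH and 65.4, 70.1, 62.6 and 59.5 CPM in KO SH. In the MI groups the sum was 226, 249, 249 and 256 CPM in WT and 80.7, 103, 98.5 and 76.5 CPM in KO. The groups did not overlap in either comparison, and this sum does not depend on how reads were divided among these genes. *Gm20633*, a non-coding RNA on the opposite strand that overlaps *H2ac18*, was also lower in the knockout (log2 −1.38, SE 0.28, in SH and −1.24, SE 0.27, in MI, edgeR adjusted p = 0.0069 and 0.021). The library kit and the reads are described as strand-specific, but the strand setting of the counting is not given in the sources used here, so whether reads of *Gm20633* and *H2ac18* were kept apart is not known.

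*H2bc18* (chr3:96177068-96177448, plus strand), which encodes H2B, was at 16.5, 21.6, 19.7 and 17.98 CPM in WT MI and at 24.7, 40.4, 31.4 and 27.4 CPM in KO MI. All KO MI libraries were higher (log2 0.71, SE 0.12, edgeR adjusted p = 0.0041). In the sham groups it was at 15.9 ± 0.95 CPM in WT and 18.2 ± 1.79 CPM in KO (SD, n = 4) and was not called. *Gm42743*, a non-coding RNA (chr3:96171010-96186345) that spans *H2bc18* on the same strand and shares 33.6% of its stretches, was at 0.51 CPM or less in all 8 WT libraries. It was at 2.12, 1.65, 1.65 and 1.70 CPM in KO SH and at 1.97, 2.48, 2.02 and 2.89 CPM in KO MI, above every WT library (edgeR adjusted p = 0.0027 and 0.00049). The sum of *H2bc18* and *Gm42743* was between 14.7 and 17.2 CPM in WT SH and between 17.9 and 22.3 CPM in KO SH. It was between 16.5 and 21.6 CPM in WT MI and between 26.6 and 42.9 CPM in KO MI, so that KO libraries were above WT libraries after either surgery. *Gm20628*, a non-coding RNA on the opposite strand that overlaps *H2bc18*, did not pass post-MI (log2 0.55, SE 0.18, edgeR adjusted p = 0.157). Its KO MI libraries, at 6.98 to 10.9 CPM, were however all above the WT MI libraries, at 6.03 to 6.58 CPM. It was also higher in KO MI than in KO SH (log2 0.87, SE 0.18, edgeR adjusted p = 0.0067). Whether its reads were kept apart from those of *H2bc18* is likewise not known.

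*H3c14* (chr3:96154001-96155825) encodes H3 and shares 100% of its stretches with *Gm20634*. It had 5, 4, 0 and 11 counts in WT MI and 84, 105, 92 and 30 counts in KO MI, with a log2 fold change of 3.85 (SE 0.75, edgeR adjusted p = 0.011). All KO MI libraries were higher. The sum of *H3c13*, *H3c14*, *H3c15* and *Gm20634*, which share their reads, was 16.8 ± 3.05 CPM in WT MI and 17.01 ± 3.62 CPM in KO MI (SD, n = 4), and the groups overlapped. Most of this sum was *H3c13*, at 12.4 CPM in WT MI and 11.97 CPM in KO MI. The mean of *H3c14* was 0.11 CPM in WT MI and 1.59 CPM in KO MI, less than the SD of the sum. The overlap of the sum therefore cannot show whether *H3c14* itself differed. *Gm20634* differed in the other direction, at 0.81 ± 0.32 CPM in WT MI and 0.32 ± 0.09 CPM in KO MI (SD, n = 4). Its KO MI libraries were all lower, but it was not called (log2 −1.34, SE 0.56, edgeR adjusted p = 0.31). *H3c14* has no stretch that sets it apart from *Gm20634*, so its fold change cannot be read apart from how reads were divided between them. The part of read division in the value of *H3c14* was not tested.

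**Figure D3:**
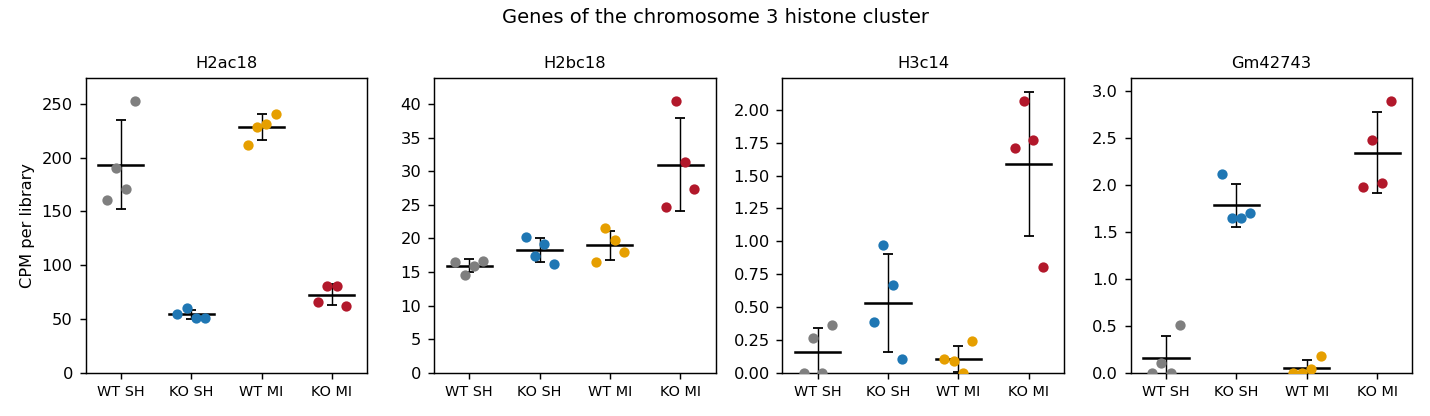
CPM per library (vertical axes, linear from 0) of 4 genes of the chromosome 3 histone cluster. Points are libraries, lines are means of 4 libraries and bars are ± 1 SD. *H2ac18* is lower in all 8 KO libraries, and *Gm42743* is at 0.51 CPM or less in WT and at 1.65 CPM or more in KO libraries.

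A pair of H4 genes also shares much of its sequence. *H4c17* and *H4c18* share 85.8% and 77.2% of their stretches with each other. *H4c17* was listed at 0 in WT SH 4, KO SH 2, KO SH 3 and WT MI 4 and reached 136 counts in WT MI 3, with a log2 fold change of −2.49 (SE 1.12) for KO SH against WT SH that did not pass the test (edgeR adjusted p = 0.19). The sum of both genes was 4.07, 3.39, 3.03 and 4.21 CPM in WT SH and 3.04, 2.67, 3.30 and 1.89 CPM in KO SH. These groups overlapped.

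**Figure D4:**
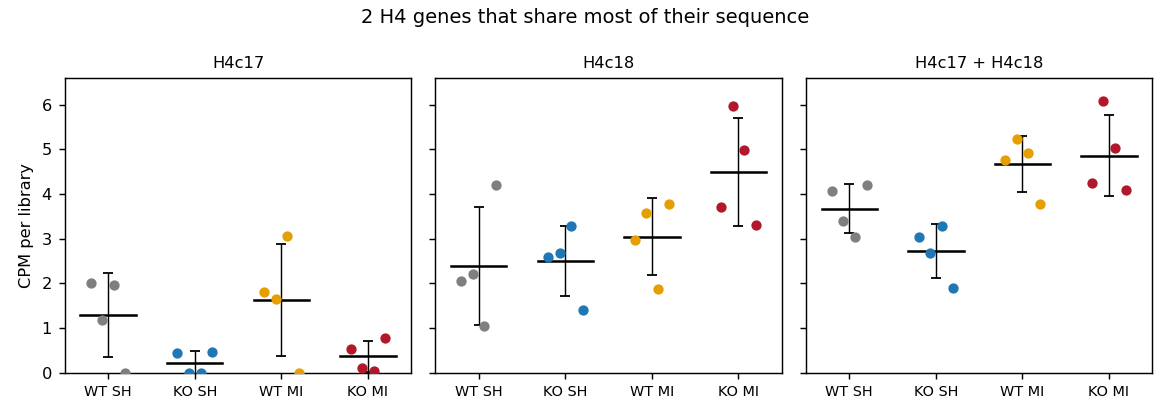
CPM per library (vertical axis, linear from 0) of *H4c17*, *H4c18* and their sum. Points are libraries, lines are means of 4 libraries and bars are ± 1 SD. *H4c17* is at 0 in 4 libraries, and the sum is between 1.89 and 6.08 CPM in all 16.

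Among the other genes of the histone pathway, of 15 genes that transcribe histone genes or process their mRNA, none was called in any comparison (edgeR), and 4 had an unadjusted p under 0.05 in KO SH against WT SH, 3 in KO MI against KO SH, 2 in KO MI against WT MI, 2 for the interaction and 0 in WT MI against WT SH. Among them *Slbp* was at 16.9 ± 0.62 CPM in WT SH and 15.2 ± 0.17 CPM in KO SH (SD, n = 4; log2 −0.15, SE 0.07), *E2f1*, a transcription factor of S phase entry, had a log2 value of −0.42 (SE 0.14, edgeR adjusted p = 0.063) in the same comparison, and *Casp8ap2*, a component of the nuclear body where histone mRNA is processed, −0.25 (SE 0.06, edgeR adjusted p = 0.017), both short of the minimum fold change. *Pou2f1*, the octamer-binding factor, was the most abundant of the list. Their median log2 value was −0.15 between the sham groups and 0.07 for MI over SH in KO hearts. Of all genes 13.6% had an unadjusted p under 0.05 (edgeR) for the interaction, and this share was not computed for the other comparisons.

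Of 9 histone variants made independently of replication, 1 was called, in 1 comparison. In that comparison, KO MI against KO SH, 7 of the 9 had an unadjusted p under 0.05 and 6 an edgeR adjusted p under 0.1, of which 5 did not reach the minimum fold change. Of all tested genes 17.5% had an edgeR adjusted p under 0.1 there, whatever their fold change. An unadjusted p under 0.05 was found for 4 of the 9 in KO MI against WT MI, 3 in KO SH against WT SH, 2 in WT MI against WT SH and 3 for the interaction. *H2ax*, whose transcript is also known in a stem-loop form, rose from 6.90 ± 0.52 CPM in KO SH to 11.4 ± 3.30 CPM in KO MI (SD, n = 4; log2 0.74, SE 0.14). Between the sham groups *H2ax* was lower in KO SH without overlap (log2 −0.45, SE 0.15, edgeR adjusted p = 0.068), short of the minimum fold change. The most abundant variant, *H3f3a*, which encodes the replacement histone H3.3, was at 222 ± 9.93 and 200 ± 7.53 CPM (SD, n = 4; log2 −0.15, SE 0.05) and was not called. The list's summed level lay between 389 and 432 CPM in all 16 libraries.

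Of 11 histone chaperones, which carry histones to and from chromatin, *Chaf1a* (log2 0.50, SE 0.11) and *Chaf1b* (log2 0.69, SE 0.14), subunits of the assembly factor that works at the replication fork, rose in KO MI against KO SH. *Hjurp*, the chaperone that loads the centromeric H3 variant CENP-A, was lower in the knockout. It was at 47.5, 49.4, 47.6 and 55.8 CPM in WT SH and at 23.98, 24.6, 21.4 and 22.1 CPM in KO SH (log2 −1.12, SE 0.07, edgeR adjusted p = 5.9e-08). Post-MI it was at 60.1, 61.6, 55.1 and 59.1 CPM in WT and at 29.4, 35.4, 32.9 and 31.3 CPM in KO (log2 −0.87, SE 0.07, edgeR adjusted p = 1.5e-06). All KO libraries were below all WT libraries. The other chaperones, with *Rbbp7* the most abundant, were not called between genotypes.

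Cell cycle genes gave the context of the histone changes. Of 21 S phase genes 3 rose in KO MI against KO SH, *Mcm3* (log2 0.54, SE 0.09) of the replicative helicase, *Tyms* (log2 0.54, SE 0.11) of thymidylate synthesis and *Cdc6* (log2 0.60, SE 0.14) of origin licensing, and all 21 values were above 0 with a median of 0.31. In this comparison 18 of the 21 S phase genes had an unadjusted p under 0.05 (edgeR) and 16 an edgeR adjusted p under 0.1, most of them short of the minimum fold change. Of all tested genes 17.5% had an edgeR adjusted p under 0.1 there, whatever their fold change. None was called in the other comparisons (edgeR), where 9 of 21 had an unadjusted p under 0.05 in KO SH against WT SH, 3 in WT MI against WT SH, 4 in KO MI against WT MI and 9 for the interaction. For the interaction 13.6% of all genes had an unadjusted p under 0.05 (edgeR), and this share was not computed for the other comparisons. The median in the sham comparison was −0.22, with 19 of 21 values below 0 and 5 genes at an edgeR adjusted p under 0.1 that did not reach the minimum fold change. Of all genes 12.3% had an edgeR adjusted p under 0.1 between the sham groups, whatever their fold change. For the interaction the median was 0.27, with 19 of 21 values above 0. *Rrm1*, a subunit of ribonucleotide reductase, was the most abundant of the list. Of 15 G2 and M phase genes all 15 rose in KO MI against KO SH (median 0.65), and *Ccnb1*, a mitotic cyclin, was the gene called in WT MI against WT SH (log2 0.64, SE 0.14). In that comparison all 15 values were above 0 (median 0.37), and 14 genes had an unadjusted p under 0.05 and 7 an edgeR adjusted p under 0.1. Of all genes 5.3% had an edgeR adjusted p under 0.1 there, whatever their fold change. *Mki67*, the most abundant of these, was at 259, 241, 232 and 228 CPM in KO SH and at 345, 459, 382 and 361 CPM in KO MI, and all KO MI libraries were higher. For KO SH against WT SH the median of the list was −0.23, with 14 of 15 values below 0 and none called (edgeR; 8 had an unadjusted p under 0.05). For the interaction none was called and 6 had an unadjusted p under 0.05, with all 15 values above 0. Between KO MI and WT MI none of the 15 was called and none had an unadjusted p under 0.05 (edgeR). The median there was 0.06, with 12 of 15 values above 0.

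Markers of other cell types also moved in these comparisons. Of 8 macrophage genes, 6 rose in KO MI against KO SH (median log2 0.81) and *C1qa* and *C1qb*, of the complement system, fell in KO SH against WT SH. Their summed level was 68.5, 69.7, 62.1 and 59.7 CPM in WT SH and 74.0, 85.8, 71.1 and 79.3 CPM in WT MI, with *Mrc1* the most abundant. It was 55.5, 61.4, 55.1 and 54.5 CPM in KO SH and 61.5, 75.7, 115 and 71.4 CPM in KO MI. KO MI 3 was the highest library, whereas KO MI 2 was the highest in most histone genes. Of 8 tested erythroid genes 7 rose in KO MI against KO SH, *Hba-a2* and *Alas2* were called higher in the knockout post-MI, and *Hbb-bt* was called lower in the knockout after sham surgery. Their sum was 528, 731, 533 and 528 CPM in WT SH and 559, 452, 556 and 638 CPM in WT MI. It was 498, 417, 434 and 475 CPM in KO SH and 957, 1146, 751 and 355 CPM in KO MI, with *Hba-a1* the most abundant and *Klf1*, a defining erythroid transcription factor, at 0.135 CPM or less. KO MI 7 was the lowest of the 16 libraries in this sum. The part of these cell types in the histone changes was not tested.

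Of 8 fibroblast genes *Col1a1*, *Col1a2* and *Postn* rose in KO MI against KO SH, and the sum, led by *Col3a1*, was 2184 ± 90.0 CPM in KO SH and 2986 ± 179 CPM in KO MI (SD, n = 4). Of 8 cardiomyocyte genes *Pln*, which regulates calcium uptake, fell in the same comparison (log2 −0.54, SE 0.10), and the sum, led by *Myh6*, was 32490 ± 4330 CPM in WT SH, 27850 ± 462 in KO SH, 26680 ± 835 in WT MI and 26410 ± 960 in KO MI (SD, n = 4). None of 8 endothelial genes, led by *Kdr*, was called in a comparison (edgeR), with 7 at an unadjusted p under 0.05 in WT MI against WT SH and 6 in KO MI against KO SH. Of 10 thymocyte genes 6 could be tested and none was called (edgeR; at most 1 with an unadjusted p under 0.05 in a comparison), with *Cd4* the most abundant over all libraries and *Ptcra* and *Rag2* near 0. Their sum was 3.84 CPM in WT SH 4, where *Rag1*, of antigen receptor recombination, was at 1.81 CPM, and 2.35 CPM or less in the other 15 libraries, where *Rag1* was at 0.501 CPM or less. WT SH 4 was also the highest WT SH library in 35 of 64 histone genes. Of 5 tested skeletal muscle genes 4 rose in KO MI against KO SH and 3 were called higher in the knockout post-MI, led by *Myh8*, with *Myod1* at 0.0394 CPM or less. Lung epithelium genes, led by *Napsa* over all libraries, had 1 gene that could be tested, which was not called (edgeR), and *Scgb1a1* was at 0. Their sum was highest in KO MI 7 (1.28 CPM) and KO MI 2 (0.728 CPM), the libraries that also stood apart in skeletal muscle genes. There *Sftpc*, a surfactant protein of the lung alveolus, was at 0.856 and 0.472 CPM, against 0.0193 CPM or less in the other 14 libraries. The part of these in the histone changes was not tested either.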

How the data were processed

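The deposited table holds RSEM expected counts per gene, given by the authors as whole numbers and not normalized. The paper's methods name Skewer, STAR and RSEM on GRCm39. The submitters' processing notes list bcl2fastq 2.17, cutadapt 3.4, FastQC, HISAT2 2.2.1, RSEM 1.1.17, DESeq2 and GRCm39, so the aligner differs between these sources, and the annotation release is not given in the sources used here. Symbols, positions and sequences were taken from GENCODE M39 on GRCm39. The histone genes and the gene lists were chosen with earlier results of these data known. Groups were taken from the labels.

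Genes whose counts reached a sum of 10 within every group were tested in R 4.3.3 with edgeR 4.0.16 (TMM, quasi-likelihood F-test, all 16 libraries, 1 coefficient per group, two-sided), and p-values were adjusted by Benjamini-Hochberg over all 20159 genes tested. SE is the fold change divided by the root of F. CPM are scaled by TMM, and groups are called non-overlapping on CPM. Permutation tests used log2(CPM + 0.5). The floor of 3 counts per library was 0.0577 to 0.0858 CPM and covers counting error only. Named genes were the 3 most counted per family, the called members (the 30 with the smallest p), the replication-independent and germ-cell members and, per list, up to 4 called genes and the most abundant; other members named as examples were chosen after their values were seen. Alternatives were DESeq2 1.42.0, other scalings, filters, thresholds, a sex covariate, a replicate block, leaving out single libraries and, chosen after seeing the data, only libraries with *Xist* below 100 CPM, leaving out KO MI 2 and KO MI 7 together, and the H2A sum without *H2ac18*. The edgeR step was tested on simulated counts. No correction was made for cell composition. The share of all genes with an unadjusted p under 0.05 was computed for the interaction with all 16 libraries only. Other counts of unadjusted p, with fewer libraries too, therefore have no background beside them.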

Additional observations from a re-analysis of the deposited data

Results flagged for a closer look

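Within groups of 4 libraries, the highest or lowest library was compared with its nearest neighbour by Dixon's ratio for the histone genes picked by the naming rule, the family sums and the sum over all histone genes. The ratio passed its 95% critical value in 11 of 180 groups, where chance gives about 1 in 20, so the number itself is close to what chance gives. WT SH 1 stood apart in the H1 sum, at 226 CPM against 183 to 190 CPM in the other WT SH libraries. The same library was high in *H1f0*, a replication-independent linker histone, at 72.6 CPM against 54.2 to 56.3 CPM, and low in *H1f9*, at 1.67 CPM against 2.38 to 2.49 CPM. KO SH 4 was low in the H2A sum, at 136 CPM with the other KO SH libraries at 149 CPM. *H1f3* was high in WT SH 4 (30.9 CPM, others 27.4 to 27.9), *H1f4* in KO SH 1 (27.5 CPM, others 23.9 to 24.3) and *H1f9* in KO SH 2 (2.48 CPM, others 1.86 to 1.96). Among MI libraries, *H2ac22* was high in KO MI 2 (1.59 CPM, others 1.42 to 1.44), *H2ac8* in KO MI 7 (2.19 CPM, others 1.70 to 1.73), *H3c4* in WT MI 3 (2.63 CPM, others 2.23 to 2.28) and *H4c1*, a low H4 gene, in WT MI 2 (1.70 CPM, others 1.02 to 1.12).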

How the results depend on the processing

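No named gene that was called changed direction under the alternatives that were run. For KO SH against WT SH the count of 13 called genes became 7 at an adjusted p under 0.05, where 3.56% of all genes passed, and 6 with only the libraries below 100 CPM of *Xist*, and it ranged from 6 to 11 without single libraries, with 3 higher and 8 lower genes without WT SH 4 and lower genes only in the other cases. For WT MI against WT SH the count of 3 became 10 with no minimum fold change, where 5.3% of all genes passed, and 0 with the *Xist* restriction (edgeR), and ranged from 1 to 5 without single libraries. For KO MI against KO SH the count of 33 became 14 with the *Xist* restriction and ranged from 26 without KO MI 2 to 40 without KO MI 7, where 4.44% and 10.9% of all genes passed. For KO MI against WT MI it ranged from 2 to 4, where 1.14% to 2.88% of all genes passed. For the interaction the count of 0 became 3 with DESeq2 and ranged from 0 to 9, with 9 without KO MI 7. The cause of these changes was not tested, other than that the *Xist* restriction leaves fewer libraries. Scaling by DESeq2 size factors, leaving out mitochondrially encoded genes and the filters on low counts left every count within 1.5 times.

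The log2 ratio of the sum over all 65 genes for KO MI against WT MI, −0.25, was 0.022 as a mean of log2(CPM + 0.5) and 0.0999 without *H2ac18*. For KO SH against WT SH, −0.55, it was −0.243 and −0.203. The H2A ratio post-MI, −0.76, was −0.0312 as a mean of logs and 0.1 without *H2ac18*, and after sham surgery, −1.01, it was −0.233 and −0.129. A sum weights abundant genes and a mean of logs does not.

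Deviations from the group mean had correlations of −0.0623 to 0.112 between same-numbered libraries of different groups. Libraries with different numbers were not compared, so these values cannot show whether same-numbered hearts shared a litter or a surgery day. The main fit used no pairing. A replicate block was also run. No other library has the number of KO MI 7, so the block gives KO MI 7 a coefficient of its own. KO MI 7 then carries no weight in the comparisons, and the block cannot be told apart from leaving it out. With a replicate block 6 genes passed for the interaction, where 3.42% of all genes did, against 4.2% without KO MI 7. In the block fit 3, 12, 4 and 37 genes, 1 of the 37 lower, passed for KO MI against WT MI, KO SH against WT SH, WT MI against WT SH and KO MI against KO SH, where 2.56%, 5.67%, 3.31% and 9.95% of all genes did.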
